A study of Homo sapiens with 6 samples.

Results

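Integrins and cadherins are the main families of adhesion receptors on epithelial and carcinoma cells, and 48 of their genes were followed here among the 26967 named genes of an RNA-seq study of HBO1 knockdown. The members were the genes with the current symbols ITGA or ITGB followed by a number or by D, E, L, M, V or X, which gave 17 alpha and 8 beta integrin subunits, and CDH followed by a number, which gave 23 cadherins. The platelet subunit ITGA2B falls outside that wording. Membership rests on names and not on measured values, though the members were chosen with earlier results of these data known. Several of the 23, such as the GPI-anchored CDH13 and the long atypical CDH23, belong to the cadherin superfamily but are not classical cadherins. In all, 30 members (13 alpha subunits, 7 beta subunits and 10 cadherins) had a mean of at least 10 normalized counts over the libraries and were tested.

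UWB1.289, an established cell line from a human ovarian carcinoma, has no functional BRCA1. Its cells received lentiviral short hairpin RNA against HBO1 (shHBO1, 3 libraries) or a control hairpin (shCTRL, 3 libraries), and both groups were exposed to polybrene at 10 µg/mL and, after 96 h, selected with puromycin at 1 to 3 µg/mL. The gene for HBO1, a histone acetyltransferase, is KAT7. Libraries carry the numbers 1 to 3 in each group, the sources used here do not give the number of hairpins, and nothing in the labels says that replicates were separate cultures, so p-values measure only the spread between these libraries.

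An integrin is a heterodimer of 1 alpha and 1 beta subunit that links the extracellular matrix, or counter-receptors on other cells, to the actin cytoskeleton. The alpha subunit largely sets which ligand is bound, and the cytoplasmic tail of most beta subunits recruits talin and kindlin. Classical cadherins join neighbouring cells through calcium-dependent contacts of their outer domains and hold actin through beta- and alpha-catenin. In carcinoma of the ovary, E-cadherin (CDH1) and N-cadherin (CDH2) are often read as markers of epithelial and mesenchymal states, and integrins with ITGB1 or ITGAV serve attachment to the mesothelial lining.

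Between 35940400 and 39908703 reads per library were recovered from the deposited values. KAT7 had 1008, 872 and 784 normalized counts in shHBO1 and 3616, 3952 and 3554 in shCTRL. It fell with a log2 fold change of −2.07 (SE 0.11, limma adjusted p = 0.00123), and its exact two-sided permutation p was 0.1, the smallest that 3 against 3 libraries allow. Of 15 markers of ovarian carcinoma and epithelium, all 15 had a mean of 10 or more, and WT1 reached at most 26.2 normalized counts in any library. Their summed level ran from 340558 to 404986 in shHBO1 and from 360379 to 435551 in shCTRL. Of these 15, 12 had estimates below 0 (median log2 fold change −0.15), and 7 were lower in shHBO1 in all 3 numbered pairs, beside 17.1% of all tested genes. In limma 0 of the 15 passed, beside 0.00659% of all tested genes. With the replicate number as a block 0 passed, beside 0.125%. Replicate numbers differed for 7 of the 15, beside 9.68% of all tested genes. All 7 were lower in number 3 than in number 1, beside 734 of the 1469 tested genes that differed. Of 11 fibroblast markers 5 had a mean of at least 10, with 3 estimates above 0 and 2 below, from −0.63 to 0.93. With the block, 4 of the 5 had an unadjusted limma p under 0.05, beside 11.3% of all tested genes. After adjustment 0 passed in limma, with or without the block (lowest adjusted p 0.0765 with it). The part of these shifts in the adhesion genes' values was not tested.

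The comparison asked whether integrin and cadherin RNA differed after HBO1 knockdown. The lowest estimate was that of VE-cadherin (CDH5), at 72.0% of its control level, and among members with a mean of at least 500 the highest were the collagen receptor subunit ITGA2 at 124%, the laminin receptor subunit ITGA6 at 121% and the epithelial subunit ITGB6 at 120%. These percents are ratios of group means. Below a mean of 500, ITGA4 stood at 136% on low counts, with a log2 fold change of 0.07. None of these differences passed limma's threshold over all tested genes, with or without the replicate number as a block. In bulk RNA, fewer cells that express a gene and less RNA per cell cannot be told apart. In limma's test of the 6 libraries, 0 of 20 integrins and 0 of 10 cadherins passed an adjusted p of 0.05, where 0.00659% of all 15173 tested genes did (KAT7 alone). With the replicate number as a block, again 0 of 30 members passed, beside 0.125% of all genes. At an unadjusted p under 0.05, limma placed 2 members without the block (CDH5 and ITGB6) against 3.55% of all genes, and 5 with the block (ITGA2, ITGA6 and CDH2 as well) against 11.3%. The edgeR test on recovered reads called 0 members with and without the block, and DESeq2 without the block called 0. DESeq2 with the block, a fit chosen after seeing the data, called 3 members (CDH5, ITGA2 and ITGB6), where it called 0.975% of all genes.

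The median log2 fold change was 0.022 over the 30 tested members, with 17 estimates above 0 and 13 below, and 0.00013 over all tested genes. It was 0.066 for the 13 alpha subunits, −0.018 for the 7 beta subunits and −0.051 for the 10 cadherins. For 25 of the 30 members the whole 95% confidence interval lay within a 2-fold change in either direction. The lowest bound was −1.45 (ITGA11) and the highest was 1.49 (ITGA4), both genes of low counts. Among the 19 members with a mean of 500 or more, 18 intervals lay within a 2-fold change, and that of ITGA2 reached 1.27. These intervals are from limma without the block.

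**Figure D1:**
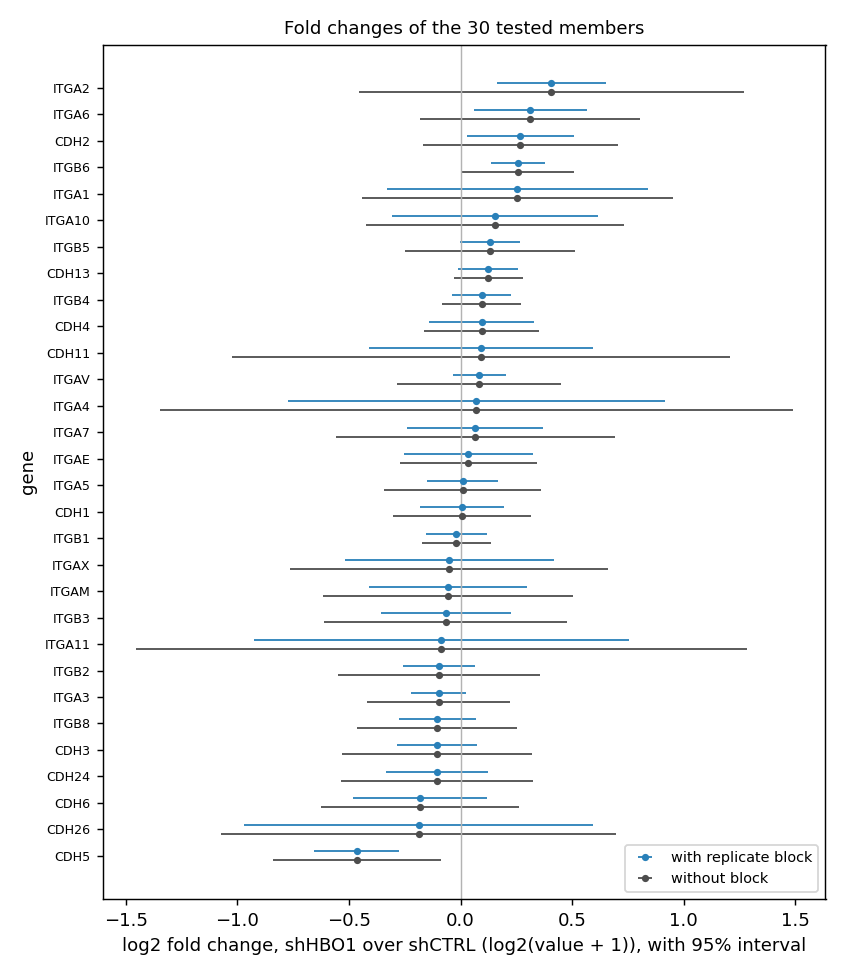
Log2 fold change of shHBO1 over shCTRL for the 30 tested members (horizontal axis, log2(normalized count + 1)), with 95% intervals from limma with the replicate block and without it. Estimates run from −0.46 (CDH5) to 0.41 (ITGA2), and the block narrows most intervals.

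The region before the transcription start is shown for 3 integrin genes: ITGB6 and ITGA2, which blocked DESeq2 called, and ITGB8, another beta partner of ITGAV. The 250 bases upstream come from RefSeq (GRCh38.p14, a later build than the hg19 named by the submitters' processing notes), 5′ to 3′ on the gene's strand. The windows are chr2:160200273-160200522 (minus strand) for ITGB6, chr5:52989102-52989351 (plus strand) for ITGA2 and chr7:20330650-20330899 (plus strand) for ITGB8. Capitals mark matches to the GC box GGGCGG on either strand.
ITGB6: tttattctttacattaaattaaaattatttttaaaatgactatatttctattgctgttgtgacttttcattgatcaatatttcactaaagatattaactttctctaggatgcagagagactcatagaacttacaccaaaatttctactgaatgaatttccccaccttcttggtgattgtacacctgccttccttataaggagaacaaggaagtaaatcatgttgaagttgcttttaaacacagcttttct
ITGA2: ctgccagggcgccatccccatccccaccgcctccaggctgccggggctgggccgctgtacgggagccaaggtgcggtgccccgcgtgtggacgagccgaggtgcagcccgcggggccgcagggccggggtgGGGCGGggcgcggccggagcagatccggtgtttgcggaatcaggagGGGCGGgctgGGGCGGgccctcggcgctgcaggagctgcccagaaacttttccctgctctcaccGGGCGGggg
ITGB8: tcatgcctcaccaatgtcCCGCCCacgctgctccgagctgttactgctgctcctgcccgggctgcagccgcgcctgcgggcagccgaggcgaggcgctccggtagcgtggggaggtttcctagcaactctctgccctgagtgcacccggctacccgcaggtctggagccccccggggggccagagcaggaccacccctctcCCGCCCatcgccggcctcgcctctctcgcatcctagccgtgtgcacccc
The ITGB6 window, the poorest of the 3 in G and C, had 0 GC boxes, the ITGA2 window was 76.4% G or C with 4, and the ITGB8 window was 71.2% G or C with 2. Of all 17397 windows of tested genes 62.3% held a GC box. A pair of further motifs were searched on both strands, the AP-1 site TGANTCA (4.48% of windows) and the TEAD site GGAATG (9.92%), and neither occurred in these 3 windows; matches to different motifs shared 0 bases in any member's window. Of the 30 tested members 17 had an entry, with 25 windows, and among these 9 windows held a GC box, 4 the TEAD letters and 1 the AP-1 letters. These are matches of letters and not shown to be sites.

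ITGB1, the beta subunit of the fibronectin, collagen and laminin receptors, was the most abundant member in both groups, also per length. It had 26628, 28522 and 25913 normalized counts in shHBO1 and 27657, 27159 and 27222 in shCTRL. The groups overlapped, and the log2 fold change of −0.02 had a 95% interval from −0.17 to 0.14. Per kilobase of its main transcript, ITGB1 stood at 7423 ± 370 normalized counts in shHBO1 and 7513 ± 74.5 in shCTRL (SD, n = 3 each).

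Its 3 deposited transcripts were distributed differently between the libraries. NM_002211 had 16383, 17061 and 18958 normalized counts in shHBO1 and 20190, 21853 and 22612 in shCTRL. NM_133376 had 10153, 11351 and 6824 in shHBO1 and 7275, 5248 and 4540 in shCTRL. The first was lower in all 3 shHBO1 libraries than in any control library, while the second overlapped between groups by 1 library of each. NM_002211 held 61.5%, 59.8% and 73.2% of the gene's counts in shHBO1 and 73.0%, 80.5% and 83.1% in shCTRL. In a limma fit over 33630 transcripts, chosen after seeing the data, the log2 fold changes were −0.30 (SE 0.077, unadjusted p = 0.00599) for NM_002211 and 0.73 (SE 0.24, unadjusted p = 0.0198) for NM_133376, and neither passed after adjustment, with or without the block (adjusted p = 0.843 for each with it). Of the members' 70 transcripts with a mean of at least 10, 0 passed in either fit, where 0.00297% of all transcripts passed without the block and 0.0% with it. At an unadjusted p under 0.05, limma without the block placed 4 of the 70, beside 1264 of all 33630 transcripts. In 3 of the 70 the groups did not overlap, against 9.09% of all transcripts. The most abundant CDH13 transcript, higher in shHBO1, was among these 3. The sources used here do not say how reads common to several transcripts were assigned, and the effect of that step on these shares was not tested. The ITGA2 record NR_073106, at 863, 942 and 1592 normalized counts in shHBO1 and 655, 701 and 3.15 in shCTRL, was near 0 in the control library in which ITGA2 as a whole had 9035.

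**Figure D2:**
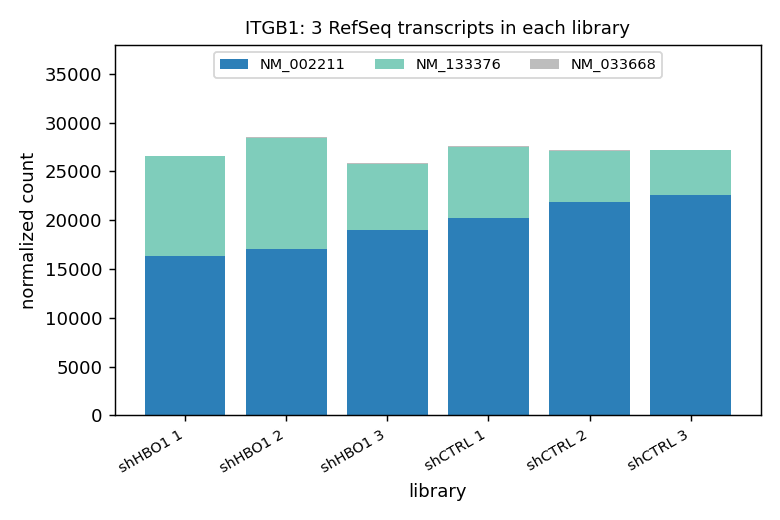
Normalized counts of the 3 ITGB1 transcripts stacked for each library, with shHBO1 on the left. The stacks are of like height, 25913 to 28522, and the NM_002211 part is lower in each shHBO1 library than in any shCTRL library.

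Among alpha subunits the laminin receptor subunit ITGA3 had the highest level per kilobase, at 2739 ± 423 normalized counts in shHBO1 and 2929 ± 418 in shCTRL. The vitronectin and latent TGF-beta receptor subunit ITGAV followed at 1895 ± 329 in shHBO1 and 1787 ± 305 in shCTRL, and ITGA6 stood at 1348 ± 183 in shHBO1 and 1115 ± 365 in shCTRL (SD, n = 3 each). The collagen receptor subunit ITGA2 and the fibronectin receptor subunit ITGA5 came next. ITGA2 stood at 859 ± 282 in shHBO1 and 692 ± 396 in shCTRL, and ITGA5 at 717 ± 82.3 in shHBO1 and 718 ± 150 in shCTRL. The gap between these neighbours was smaller than the SD of ITGA2 in each group, and their order differed between the groups.

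ITGA3 had 15605, 13040 and 11513 normalized counts in shHBO1 and 16311, 14412 and 12226 in shCTRL, a log2 fold change of −0.10 (SE 0.14). ITGAV had 13263, 11033 and 15663 in shHBO1 and 12558, 10424 and 14712 in shCTRL, a log2 fold change of 0.08 (SE 0.16). In these genes each library stood near the library of the same number in the other group. The pair differences for ITGAV were 0.08, 0.08 and 0.09 on the log2 scale, small beside the spread within a group.

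ITGA2 had 5225, 5749 and 9306 normalized counts in shHBO1 and 3390, 3917 and 9035 in shCTRL. The number 3 libraries of both groups were high, and the number 1 and 2 libraries were higher in shHBO1. The log2 fold change was 0.41 (SE 0.37, limma adjusted p = 0.9999), and within the numbered pairs it was 0.62, 0.55 and 0.04. With the block the SE was 0.11, the unadjusted p 0.00485 and the limma adjusted p 0.226, and blocked DESeq2 called the gene (adjusted p = 0.00907). ITGA6, the partner of ITGB4 in hemidesmosomes, had 6388, 8094 and 8241 normalized counts in shHBO1 and 4792, 5393 and 8610 in shCTRL. Its log2 fold change was 0.31 (SE 0.21), with 0.41, 0.59 and −0.06 in the pairs, so the number 3 pair had the opposite sign. ITGA5 had 99.8% of its control level on average, with a log2 fold change of 0.01 (SE 0.15).

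Several beta subunits pair with ITGAV. ITGB6, which forms an epithelial receptor that activates latent TGF-beta, had 7386, 8214 and 9093 normalized counts in shHBO1 and 6101, 6948 and 7614 in shCTRL. Each shHBO1 library lay above the control library of its own number, by 0.28, 0.24 and 0.26 on the log2 scale, while the lowest shHBO1 value lay under the highest control value. Its log2 fold change was 0.26 (SE 0.11, 95% interval 0.01 to 0.51, unadjusted p = 0.0453, limma adjusted p = 0.9999), and with the block the SE was 0.052 and the limma adjusted p was 0.147.

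ITGB8, which with ITGAV also activates TGF-beta, had 8919, 7353 and 7635 normalized counts in shHBO1 and 10889, 7949 and 7196 in shCTRL, a log2 fold change of −0.10 (SE 0.15). The log2 fold change of its antisense neighbour ITGB8-AS1 was −0.17 (SE 0.20). Since no strand setting for the counting is stated, reads where ITGB8 and ITGB8-AS1 overlap may not be separable. ITGB5 averaged 4559 ± 704 in shHBO1 and 4190 ± 873 in shCTRL, and ITGB3 averaged 1113 ± 358 in shHBO1 and 1133 ± 178 in shCTRL. ITGB4 had 5543, 5957 and 5918 in shHBO1 and 5184, 5892 and 5255 in shCTRL, a log2 fold change of 0.09 (SE 0.076), with the groups overlapping only through number 1 of shHBO1 and number 2 of shCTRL.

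**Figure D3:**
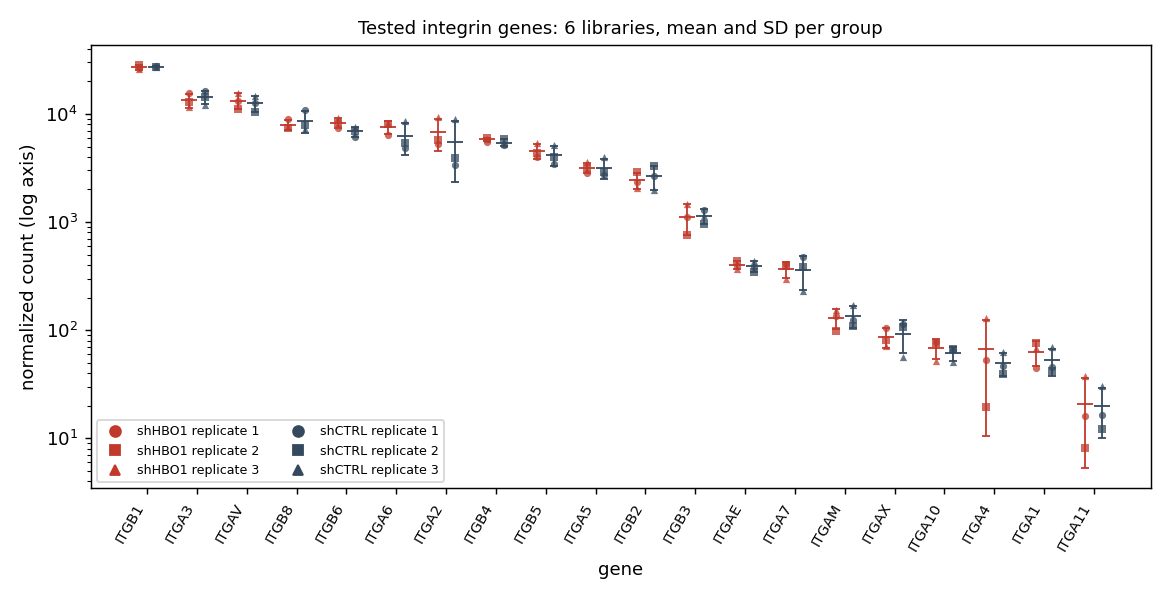
Normalized counts (log axis) of the 20 tested integrin genes in each library, with shHBO1 left of shCTRL, the mean as a bar and the SD as whiskers (n = 3 each). Levels run from ITGB1 (27021 in shHBO1, 27346 in shCTRL) down to ITGA11 (20.6 in shHBO1, 19.6 in shCTRL), and the groups overlap for each gene.

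Subunits known mainly from leukocytes were also detected. ITGB2, the shared beta subunit of leukocyte integrins, averaged 2448 ± 422 normalized counts in shHBO1 and 2652 ± 665 in shCTRL. Its antisense neighbour ITGB2-AS1 averaged 508 ± 104 in shHBO1 and 509 ± 145 in shCTRL. Reads where ITGB2 and ITGB2-AS1 overlap may likewise not be separable. Of the alpha partners of ITGB2, ITGAM averaged 130 ± 28.3 in shHBO1 and 135 ± 31.3 in shCTRL. ITGAX averaged 86.2 ± 17.6 in shHBO1 and 92.0 ± 30.8 in shCTRL, ITGAL reached at most 4.07 in any library and ITGAD had 0 reads. Of 18 leukocyte markers 9 had a mean of at least 10, CD3D, CD4 and TYROBP were at 0 in all libraries, and PTPRC, the gene for CD45, ranged from 14.5 to 50.5 in shHBO1 and from 14.7 to 47.7 in shCTRL. Most of the list's level came from CORO1A, at 1728 ± 324 in shHBO1 and 1610 ± 312 in shCTRL, CD68, at 526 ± 93.5 in shHBO1 and 496 ± 60.5 in shCTRL, and LAPTM5, at 381 ± 83.8 in shHBO1 and 338 ± 77.8 in shCTRL. Of the 9 markers with a mean of at least 10, 4 had estimates above 0 and 5 below. These ran from −1.06 to 0.32 on the log2 scale, with a median of −0.22. The summed level of the list was 2384 to 3183 in shHBO1 and 2237 to 2999 in shCTRL, and its part in the ITGB2 level was not tested. ITGAE, which pairs with ITGB7 to bind E-cadherin, averaged 398 ± 34.4 in shHBO1 and 390 ± 43.4 in shCTRL. The span of ITGAE also holds the gene HASPIN, whose reads may not be separable, and ITGB7 stayed at or under 11.6 in every library.

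Low alpha subunits varied more than the group means differed. ITGA4, a receptor subunit for VCAM1 and fibronectin, had 52.3, 19.3 and 130 normalized counts in shHBO1 and 46.7, 39.3 and 62.9 in shCTRL. ITGA1, ITGA10 and ITGA11, which like ITGA2 bind collagen with ITGB1, averaged 62.6, 68.3 and 20.6 in shHBO1 and 52.4, 60.9 and 19.6 in shCTRL. ITGA7, a laminin receptor subunit of muscle, averaged 365 ± 59.9 in shHBO1 and 361 ± 125 in shCTRL. ITGA8 and ITGA9 reached at most 2.03 and 3.75 in any library. ITGA2B, added for comparison, averaged 15.1 ± 4.87 in shHBO1 and 25.7 ± 8.69 in shCTRL, and its log2 fold change of −0.71 (SE 0.41) did not pass.

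CDH5, which joins endothelial cells and is also found in some carcinoma lines, had 856, 699 and 674 normalized counts in shHBO1 and 1232, 1029 and 835 in shCTRL. It was lower in shHBO1 in each numbered pair, with differences of −0.52, −0.56 and −0.31 on the log2 scale, although the highest shHBO1 value lay above the lowest control value. The log2 fold change was −0.46 (SE 0.16, 95% interval −0.84 to −0.09, unadjusted p = 0.0215, limma adjusted p = 0.9999). With the block the SE was 0.083 and the limma adjusted p was 0.110, the smallest of any member in that fit. Of 11 endothelial markers 9 had a mean of at least 10, with a summed level of 3126 to 3248 in shHBO1 and 2983 to 3708 in shCTRL. Of these 9, 4 had estimates above 0 and 5 below, from −0.23 to 0.75 on the log2 scale. EGFL7 carried most of the sum, at 2831 ± 125 in shHBO1 and 3110 ± 422 in shCTRL (SD, n = 3 each), while PECAM1 reached at most 55.0 normalized counts, VWF 28.4 and EMCN 4.19 in any library, and their part in the CDH5 difference was not tested.

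CDH13, a GPI-anchored cadherin without a cytoplasmic tail, was the only member whose groups did not overlap. It had 3974, 3668 and 3854 normalized counts in shHBO1 and 3541, 3574 and 3424 in shCTRL. All 3 shHBO1 values lay above all control values, which also held for 4.49% of all tested genes, so 1 of 30 members is near that background. Its log2 fold change of 0.12 (SE 0.067, limma adjusted p = 0.9999) was 109% of the control level. No member had all shHBO1 values below the control values, against 4.44% of all genes, and in either direction the groups of 8.93% of all genes did not overlap.

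E-cadherin (CDH1) had nearly equal means, 1871 ± 123 normalized counts in shHBO1 and 1883 ± 323 in shCTRL, with a log2 fold change of 0.0046 and a 95% interval from −0.30 to 0.31. N-cadherin (CDH2) had 2586, 2829 and 3026 in shHBO1 and 1795, 2239 and 3161 in shCTRL. The highest of its 6 values was a control library, and the pairs gave 0.53, 0.34 and −0.06 on the log2 scale. Its log2 fold change of 0.27 (SE 0.19) did not pass. Per kilobase CDH2 had the highest level of the cadherins in both groups, 650 ± 50.8 in shHBO1 and 554 ± 161 in shCTRL, and CDH1 stood at 383 ± 25.2 in shHBO1 and 385 ± 66.2 in shCTRL.

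CDH6, a cadherin of kidney and of many serous ovarian carcinomas, had 3257, 2323 and 2643 normalized counts in shHBO1 and 3546, 3563 and 2308 in shCTRL, a log2 fold change of −0.18 (SE 0.19). P-cadherin (CDH3) averaged 1589 ± 247 in shHBO1 and 1726 ± 376 in shCTRL. CDH24, a type II cadherin, averaged 1509 ± 178 in shHBO1 and 1655 ± 431 in shCTRL, and R-cadherin (CDH4) averaged 402 ± 15.1 in shHBO1 and 376 ± 21.4 in shCTRL. The osteoblast cadherin CDH11 averaged 70.0 ± 36.4 in shHBO1 and 67.9 ± 41.5 in shCTRL, and CDH26 averaged 19.1 ± 3.22 in shHBO1 and 22.8 ± 8.20 in shCTRL. Of the 13 cadherins that were not tested, CDH17, CDH19 and CDH20 had 0 reads in all 6 libraries, which allows up to 3 reads in a library (counting error only). The other 10 reached at most 9.37 normalized counts (CDH23) in any library.

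**Figure D4:**
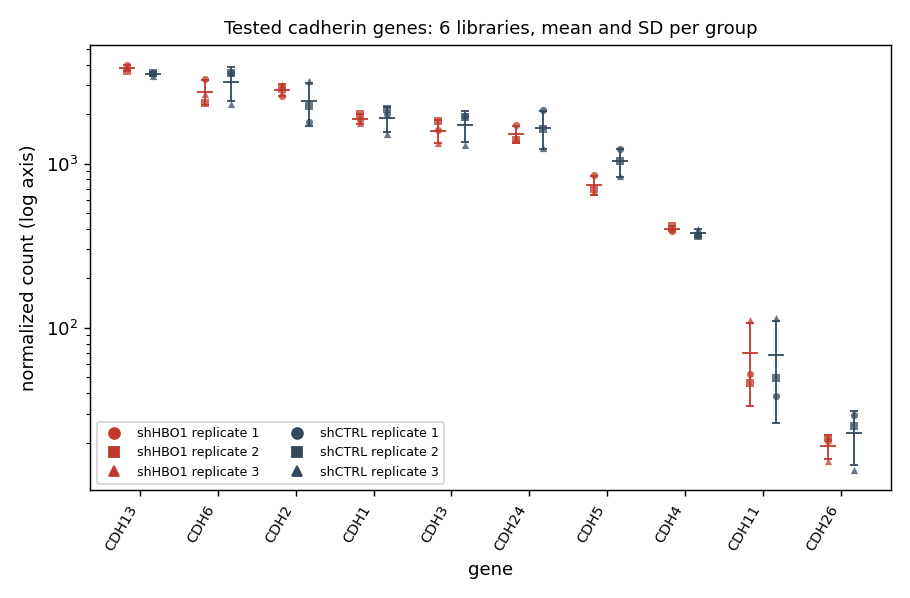
Normalized counts (log axis) of the 10 tested cadherin genes in each library, with shHBO1 left of shCTRL, the mean as a bar and the SD as whiskers (n = 3 each). CDH13 is the only gene without overlap (lowest shHBO1 value 3668, highest shCTRL value 3574), and CDH5 is lower in shHBO1 in each numbered pair.

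More members differed between replicate numbers than between hairpins. In the blocked limma fit 11 of 30 members (36.7%) differed between replicate numbers at an adjusted p under 0.05, where 9.68% of all tested genes did. These were 9 of 20 integrins and 2 of 10 cadherins. The median size of the log2 difference between numbers 3 and 1 was 0.44 over the members and 0.20 over all tested genes, while the median size of the log2 fold change between groups was 0.098 over the members and 0.093 over all tested genes. The labels do not say what the numbers stand for.

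Of the 30 tested members, 6 differed with number 3 above number 1, beside 4.84% of all tested genes. Another 5 of the 30 differed with number 3 below, also beside 4.84%. Among all 1469 tested genes that differed, number 3 was above in 735 and below in 734. The collagen receptor subunit ITGA2 (1.12 on the log2 scale, limma adjusted p = 0.00518), ITGB5 (0.51), ITGA5 (0.43), ITGB6 (0.31) and ITGAV (0.23) were higher in number 3, and so was CDH11 (1.32). ITGA7 (−0.76), CDH3 (−0.43), ITGA3 (−0.43), ITGB8 (−0.41) and ITGB2 (−0.30) were lower. ITGB1 differed by −0.03 and did not pass (adjusted p = 0.766).

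**Figure D5:**
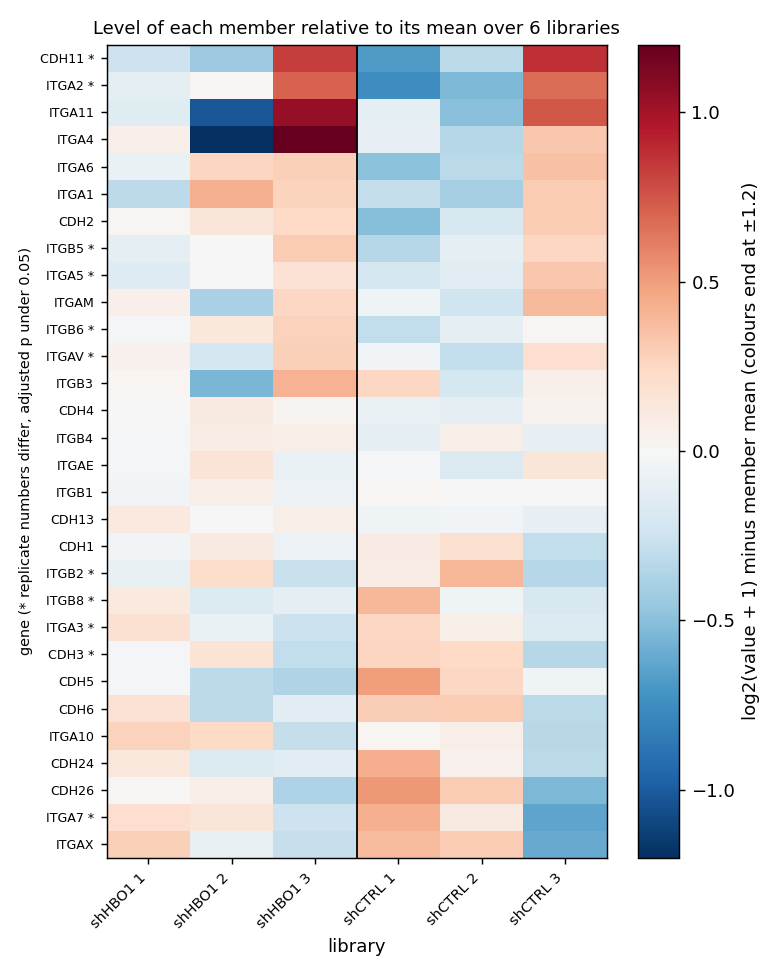
Level of each tested member in each library as log2(normalized count + 1) minus its mean over the 6 libraries (colour), with shHBO1 left of shCTRL and genes ordered by the difference between numbers 3 and 1. Genes run from CDH11 (1.32) at the top to ITGAX (−0.77) at the bottom, stars mark the 11 members past the threshold, and CDH11 and ITGA2 are highest in the number 3 library of each group.

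The same direction in all 3 numbered pairs was seen in 7 members above control, beside 15.3% of all genes, and in 2 below (CDH5 and ITGA3), beside 17.1%. In blocked DESeq2 on the recovered reads the log2 fold changes were −0.47 for CDH5 (adjusted p = 0.0130), 0.41 for ITGA2 (adjusted p = 0.00907) and 0.26 for ITGB6 (adjusted p = 0.0144). Without the number 3 libraries of both groups the blocked limma fit called 11 members, beside 14.2% of all genes. It rests on 2 pairs with 1 residual degree of freedom, and 7 of the 11 had the opposite sign in the number 3 pair, among them ITGA6, CDH2 and ITGB8.

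Proteins that act with integrins and cadherins were read from 4 lists with 115 tested genes. In limma 0 of the 115 passed without the block, beside 0.00659% of all tested genes, and 0 with it, beside 0.125%. In 9 of the 115 all shHBO1 values lay above all control values, beside 4.49% of all tested genes. In 7 they all lay below, beside 4.44%. Of 41 integrin activators and focal adhesion proteins 27 had estimates above 0, beside 7592 of all 15173 tested genes. Their median log2 fold change was 0.056. The focal adhesion protein TES had 6382, 6595 and 6610 normalized counts in shHBO1 and 5165, 6000 and 5649 in shCTRL. Its log2 fold change was 0.22 (SE 0.075), and its groups did not overlap. The adaptor CRKL was at 0.20 (SE 0.081) and the tensin TNS4 at −0.73 (SE 0.25), and these 3 had the smallest p-values of their list. Of 21 tested integrin ligands outside collagens and laminins the median was 0.044. MFGE8, a ligand of ITGAV integrins, had 7091, 5463 and 7245 in shHBO1 and 9661, 7534 and 8399 in shCTRL, a log2 fold change of −0.37 (SE 0.13) without overlap. ICAM1, a ligand of ITGB2 integrins, had −0.34 (SE 0.25), and LGALS3BP had −0.11 (SE 0.070). Of the 21 ligands 13 had estimates above 0. The highest was that of THBS1, named after its values were seen, with 7266, 10929 and 20801 normalized counts in shHBO1 and 4121, 5467 and 16772 in shCTRL. Its log2 fold change was 0.71 (SE 0.55), with a limma adjusted p of 0.0933 with the block and a call in blocked DESeq2 (adjusted p = 0.0450).

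Of 32 tested catenins and cadherin regulators the median was 0.017. LIMA1, an actin-binding protein that associates with alpha-catenin, had 1861, 1870 and 1829 normalized counts in shHBO1 and 2357, 2544 and 2257 in shCTRL, a log2 fold change of −0.36 (SE 0.076, limma adjusted p = 0.9999). Its groups did not overlap, and with the block its limma adjusted p was 0.102. DESeq2 without the block called it (adjusted p = 0.0477) and no other gene of the 4 lists. The transcription factor KLF4 had 0.27 (SE 0.095) and the nectin NECTIN3 had 0.40 (SE 0.14). Of 21 tested desmosomal and other cadherin superfamily genes the median was 0.0010, with FAT4 at 0.97 (SE 0.36) on low counts, FAT2 at −0.21 (SE 0.088) and PCDH1 at 0.21 (SE 0.095).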

How the data were processed

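RNA-seq was done on 6 libraries of UWB1.289 cells, 3 shHBO1 and 3 shCTRL. The authors deposited a single table of normalized counts (a signal per RefSeq accession, 58215 accessions). The submitters' processing notes name Bowtie 1.2.1.1, SAMtools, DESeq2 and hg19 but give no roles, and the counting of shared reads is not described. Each deposited value was a whole multiple of 1 step per library, which gave whole reads for 100% of values (tolerance 0.01 read), 35940400 to 39908703 per library. Names came from RefSeq (GRCh38.p14) for 57191 accessions and from GENCODE 29 for 646, and the 378 unnamed accessions were left out. Accessions were summed per gene.

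The test was limma-trend (limma 3.58.1, R 4.3.3). It used log2(normalized count + 1) and kept the 15173 genes averaging 10 or more, with p-values adjusted over all of them by Benjamini-Hochberg. Fold changes are shHBO1 minus shCTRL and understate low genes. As alternatives, edgeR 4.0.16 and DESeq2 1.42.0 were run on recovered reads, and the fits were tested on simulated data. Levels per kilobase use the GENCODE length of each gene's most abundant matched transcript. Deviations of same-numbered libraries from their group means correlated at 0.324, 0.195 and 0.478 for numbers 1 to 3. All were over 0.1, so a number was taken to pair 2 libraries, but no label says what it marks, and shHBO1 number 1 correlated with shCTRL number 2 at 0.206. Values per library are given for the 8 members with the smallest p, the 3 most abundant of each family, members without overlap and a few more, and 3 genes were named for each partner list. The members, lists and tests were chosen with earlier results of these data known.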

Additional observations from a re-analysis of the deposited data

How the results depend on the processing

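KAT7 kept its call in all 23 alternatives. Leaving out 1 library at a time gave log2 fold changes of −2.16 to −1.98 for KAT7, 1 called gene in all, and 0 called integrins, cadherins or partner genes each time. Other scalings, filters and pseudocounts without the replicate block, and edgeR, also gave 0 called members. Over all tested genes, 19 passed with the replicate block, with blocked edgeR, with blocked TMM scaling and with DESeq2 without it, 22 with blocked quantile normalization and 148 with blocked DESeq2. With the block, 25 passed without the number 1 libraries, 1 without the number 2 libraries and 2160 without the number 3 libraries. Blocked DESeq2 called 2 of 20 integrins, 1 of 10 cadherins and 5 of 115 partner genes (CCN2, ICAM1, LIMA1, MFGE8 and THBS1), beside 0.975% of all genes. DESeq2 without the block called 1 partner gene (LIMA1). THBS1 was the 1 partner gene with blocked quantile normalization (0.70) and with the block without the number 1 libraries (0.65). CCN2 and THBS1 are named because of these calls, after their values were seen, and the blocked DESeq2, TMM and quantile fits and the blocked fits without a number were added after seeing the data. Without the number 3 libraries the blocked fit, with 1 residual degree of freedom, called 7 of 20 integrins, 4 of 10 cadherins and 29 of 115 partner genes. It called 14.2% of all genes. Members that differed between replicate numbers numbered 7 with no filter on low values, 9 with edgeR, 13 with quantile normalization and 11 in the fit as reported. The causes were not tested.

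Signs of members near 0 turned with single libraries. Without 1 library at a time ITGA3 ran from −0.21 to 0.0048, ITGAV from −0.044 to 0.21, ITGB1 from −0.058 to 0.011 and ITGB8 from −0.23 to 0.070. ITGA2 ran from 0.14 to 0.84, ITGA6 from 0.14 to 0.57, CDH2 from 0.078 to 0.49 and CDH6 from −0.39 to −0.069. ITGB1 was at 0.0080 without the number 3 libraries, with or without the block, and CDH6 at 0.037 without the number 2 libraries with the block. CDH5 stayed between −0.61 and −0.33, and ITGB6 between 0.17 and 0.33, over all 23 alternatives.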

Other observations

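The 48 members held 0.297 to 0.338% of recovered reads in a library. Integrins held 0.271, 0.265 and 0.295% in shHBO1 and 0.268, 0.253 and 0.279% in shCTRL, and cadherins 0.0439, 0.0402 and 0.0422% in shHBO1 and 0.0453, 0.0442 and 0.0380% in shCTRL. Counted over transcripts, 121 records belonged to the members, and 70 had a mean of at least 10. Among the tested members, 3 share their span with a tested neighbour of higher mean: ITGA1 with PELO, ITGA7 with BLOC1S1, and ITGAE with HASPIN and P2RX5.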
